A study of Zea mays with 40 samples.

Results

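The 150 genes described here were the maize genes whose transcripts stood out most at 20 days after pollination (DAP) in a time course of developing kernels. They were chosen from 35991 rows with GRMZM gene names, of 65196 rows in all. For each gene, the FPKM values (fragments on a gene, divided by gene length and by the mapped fragments of the library) of the 8 libraries of a DAP were averaged over the 4 lines. The 9866 genes with a mean of at least 5 FPKM at 20 DAP were then scored by the 20 DAP mean plus 1, divided by the highest mean of 10, 30, 40 and 50 DAP plus 1, and the 150 highest scores were kept. Of the 9866 genes, 1717 had a score above 1. The height of the 20 DAP mean over the other times is therefore how the genes were found, and it is given below as a description without a test. At the edge of the list, GRMZM2G321010, GRMZM2G148855 and GRMZM2G429533 were the last inside and GRMZM2G056903 the first outside, all with a score of 2.10, followed outside by GRMZM2G331701 at 2.09 and GRMZM2G396402 at 2.07.

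Kernels of 4 inbred lines, labelled T191, T147, T209 and T210, were taken at 5 times, every 10 days from 10 to 50 DAP. T191 and T147 carry the numbers of YZU191 and YZU147, which the study took from a population of recombinant inbred lines of the cross DH1M × T877 as lines with extreme seed filling. T209 and T210 are then the parents, and the labels do not say which of them is DH1M. The 40 libraries made 20 groups, each with 2 similar ears and 1 library from each, so that a p-value here measures the spread between ears of one line. Each line is a single genotype, and no treatment was applied. Whole seeds were used, so a library mixes endosperm, embryo and maternal tissue. Fewer cells of a type and less RNA per cell cannot be told apart.

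The maize endosperm grows mainly by starch and storage protein deposition in the middle of grain filling. Zeins, the major storage proteins, are made in the starchy endosperm, where the bZIP factor Opaque2 activates many of their genes. Basal transfer cells bring in sugar from the mother plant, and the embryo fills with oil and globulins. Heat shock proteins are chaperones that are also made in maturing seeds without heat.

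Relative depth of the 40 libraries ranged from 0.612 to 2.30 of the median library, and from 0.871 to 1.61 at 20 DAP. Read numbers cannot be recovered from FPKM, so counting intervals are left out. The markers of starchy endosperm (8 genes) summed to 2024 to 4861 FPKM in the 20 DAP libraries, and the leaf markers to 1.60 at most. T191 ear 2 of 20 DAP stood apart from the other 7 libraries of its time. All 6 transfer layer markers were below 1 FPKM in it, with a sum of 2.25 FPKM against 82.6 to 218 FPKM in the others, and its embryo markers summed to 7077 FPKM against 22156 to 54497 FPKM. The embryo sum was low mainly by ole1 (3868 FPKM) and glb2 (40.3 FPKM). Its glb1 value (2035 FPKM) was above that of T191 ear 1 (1385 FPKM), and ole3 (1131 FPKM) was near T147 ear 1 (1140 FPKM). This library also had the lowest sums of starchy endosperm markers (2024 FPKM) and aleurone markers (25.6 FPKM). Its part in the results was not tested beyond the values without it given below.

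The score of the 150 genes ran between 2.10 and 37.5 with a median of 2.71, and the 20 DAP mean was 2.99 times the second-highest mean at the median. Medians of the gene means were 8.46, 25.9, 5.30, 3.07 and 2.74 FPKM over the 5 times. The second-highest time was 10 DAP in 80 genes, 30 DAP in 41, 40 DAP in 7 and 50 DAP in 22. The mean at 20 DAP exceeded 100 FPKM in 32 genes, and 39 genes were under 1 FPKM at both 40 and 50 DAP. The genes made up between 1.65% (T210 ear 2) and 5.71% (T209 ear 1) of the FPKM of a 20 DAP library. RefSeq held 93 of the 150 gene names, and 13 of these had a name beyond a locus number, so most of the list has no role to report. Those 93 genes lay on all 10 chromosomes, with 23 on chromosome 1 and 3 each on chromosomes 9 and 10.

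The gene that led the list, GRMZM2G049767, was high at 20 DAP alone. Its 20 DAP values were 408 and 109 FPKM in the ears of T191, 447 and 133 FPKM in T147, 322 and 178 FPKM in T209, and 314 and 133 FPKM in T210. In every line ear 1 was above ear 2, and the highest of the 32 libraries of other times reached 13.1 FPKM. Means ± SD were 3.06 ± 2.68, 256 ± 134, 4.99 ± 4.92, 3.59 ± 3.66 and 5.85 ± 3.68 FPKM from 10 to 50 DAP (n = 8 each), which put 20 DAP 43.7 times above the second-highest mean. GRMZM2G096831 came next with a score of 13.6. Its 20 DAP libraries held 32.5 FPKM at the lowest, 83.9 at the median and 446 at the highest, and no other library was above 20.6 FPKM. GRMZM2G424509 ranged from 107 to 429 FPKM at 20 DAP with a median of 163 FPKM, and it was below 1 FPKM on average at 40 and 50 DAP. GRMZM2G080724 held 54.7 to 756 FPKM (median 262), with means of 27.6 FPKM at 10 DAP, 6.29 FPKM at 30 DAP and 40.0 FPKM at 50 DAP, so that it fell and came back. Its lowest 20 DAP library lay below the highest library of the other times, at 91.3 FPKM. None of these genes has an annotated role in the tables used.

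The remaining genes of the 20 highest scores had scores between 4.19 and 6.33. GRMZM2G105302 was the most even among the ears, with 42.2 to 83.4 FPKM at 20 DAP (62.4 ± 14.7, SD, n = 8) against at most 23.3 FPKM elsewhere, and GRMZM2G070475 held 146 to 622 FPKM against at most 102 FPKM. GRMZM2G132958, GRMZM2G435689, GRMZM2G110299 and GRMZM2G481605 had an SD at 20 DAP above their mean. GRMZM2G362470 owed its place to a single ear, as T209 ear 1 held 59.6 FPKM and the median 20 DAP library 1.74 FPKM. GRMZM2G123212 was high in most ears (94.8 to 800 FPKM, median 583), but its T147 mean was highest at 10 DAP. GRMZM2G047164, GRMZM2G347994 and GRMZM2G163830 carried the same value in every library, so the list holds 148 distinct profiles. GRMZM2G465430 and GRMZM2G029087 differ in value but match 1 RefSeq gene.

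Of the 150 genes, 49 had a mean at 50 DAP above that at 30 DAP by any amount, taken here as coming back, and 101 did not. In 32 of the 49 the 50 DAP mean was more than 2 times the 30 DAP mean. Of all 9866 genes with 5 FPKM or more at 20 DAP, 42.4% had the higher 50 DAP mean. The medians of the means of the 49 genes were 5.52, 31.8, 3.29, 4.62 and 7.84 FPKM over the 5 times, with a trough at 30 DAP. Those of the 101 genes were 8.66, 24.8, 6.64, 2.32 and 1.26 FPKM, a decline without return. GRMZM2G080724, GRMZM2G443180, GRMZM2G123212, GRMZM6G735128 and MYB93 are of the first kind. GRMZM2G049767 is counted there too, but its means at 30 and 50 DAP were nearly level, at 4.99 and 5.85 FPKM. The zeins, GRMZM2G424509, GRMZM2G070013 and GRMZM2G172327 are of the second.

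**Figure D1:**
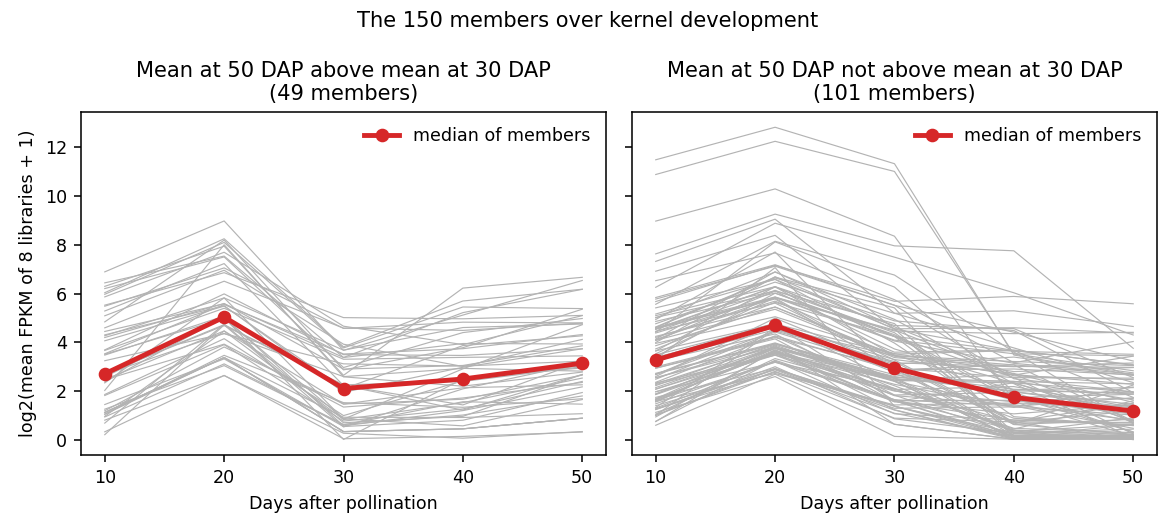
Log2(mean FPKM + 1) against DAP for the 49 genes with a higher mean at 50 than at 30 DAP and for the 101 others. Grey lines are genes, each point a mean of 8 libraries, and the red line is the median. Both panels peak at 20 DAP because the genes were chosen so. The panels part after 20 DAP, where the 49 genes dip at 30 DAP and the 101 go on down to a median of 1.26 FPKM.

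The 49 genes shared their trough with 16 heat shock protein rows found by gene name. None of these rows is in the list, but only 13 of the 150 genes have a name beyond a locus number. Unnamed heat shock genes among the 150 would thus not be seen. HSP82, with a score of 2.65, is outside the list because its row has no GRMZM name. The 16 heat shock rows tested had medians of means of 126, 288, 21.1, 66.5 and 203 FPKM from 10 to 50 DAP, and 8 of them were highest at 20 DAP. Between 20 and 30 DAP, averaged over the lines, 15 of the 16 fell by limma with Benjamini-Hochberg adjustment (15.7% of all rows tested fell), and hsp70-4 did not pass. Between 10 and 20 DAP 6 of the 16 rose (9.86% of all rows rose), among them HSP82 by 2.58 ± 0.47 and hsp101 by 1.36 ± 0.43 on the log2 scale (SE, adjusted p = 9.84e-05 and 0.0144), and hsp70-4 fell by 1.31 with adjusted p = 0.0337, a call lost when the libraries were rescaled (adjusted p = 0.121). Among 12 genes named as heat shock factors, 7 rose and 1 fell from 10 to 20 DAP, and 4 rose and 4 fell from 20 to 30 DAP. Hsf03 (GRMZM2G164909) rose by 2.18 ± 0.32 and fell by 4.19 at the next step. Over the 40 libraries, the median Pearson correlation of the 49 genes with the mean log2 level of the 16 heat shock rows was 0.672, against 0.437 with Opaque2, and the first was the larger in 42 of 49. For the 101 genes the medians were 0.246 and 0.765, with the first larger in 2 of 101. These correlations are descriptions. The 2 kinds were parted by their means at 30 and 50 DAP, which builds in part of the difference, and the libraries share their DAP. Opaque2 itself (GRMZM2G015534) had means of 123, 201, 42.3, 0.234 and 0.160 FPKM.

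**Figure D2:**
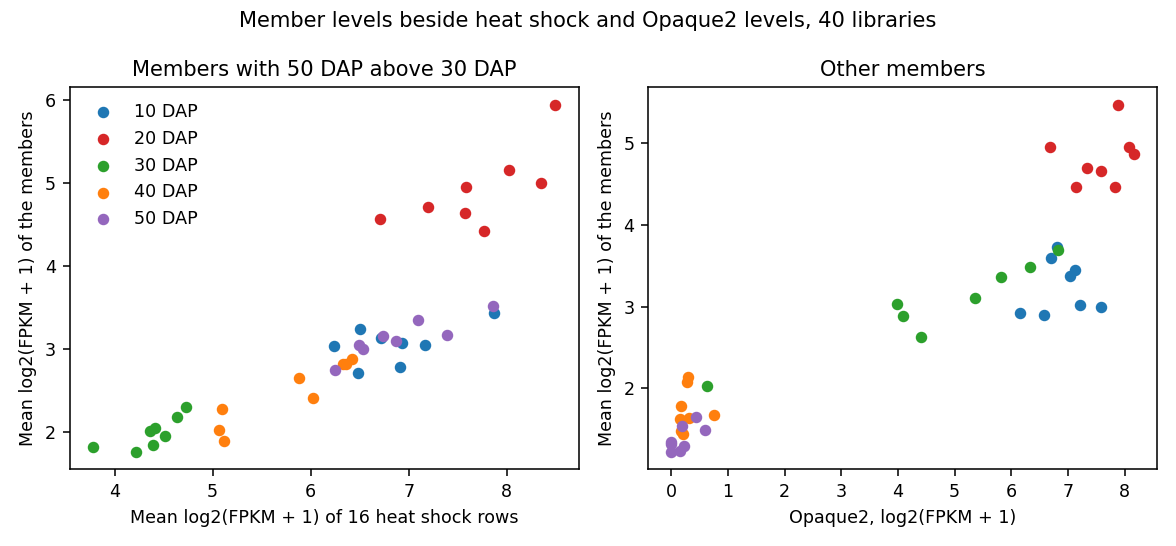
Mean log2(FPKM + 1) in each of the 40 libraries, for the 49 genes against the 16 heat shock rows and for the 101 genes against Opaque2 (log2(FPKM + 1)), coloured by DAP. The 20 DAP libraries lie above libraries of other times at a like heat shock level, a height set by the choice of genes high at 20 DAP. T210 ear 1 of 20 DAP is the highest of the 20 DAP libraries on both axes of the heat shock panel, at 5.95 and 8.50.

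Storage proteins stood at the top of the list by level. The alpha zein gene z1C2 (GRMZM2G397687) had 20 DAP values of 6612 and 1950 FPKM in T191, 11575 and 13714 FPKM in T147, 12674 and 7546 FPKM in T209, and 3422 and 745 FPKM in T210. Its T147 ears were still at 11448 and 5649 FPKM at 30 DAP, and ear 1 was above all but 3 libraries of 20 DAP. The gamma zein gene gz50 (GRMZM2G138689) held 870 to 8890 FPKM at 20 DAP (median 4952), with its lowest value in T191 ear 2, and its T210 mean was highest at 30 DAP. Alpha zein copies are nearly identical, and reads may be divided among them, so the value of a single copy is uncertain. Of 23 zein rows tested, which held 11 distinct profiles, 21 were highest at 20 DAP, and the 21 not in the list had a median difference of 0.60 between 20 and 10 DAP on the log2 scale. None of those 21 passed limma at that step, nor at an unadjusted p under 0.05. From 20 to 30 DAP 20 of the 21 fell, with a median of −2.39 against 0.07 over all rows tested. The gene gz27 (GRMZM2G138727) rose by 4.88 ± 0.75 (adjusted p = 1.40e-05). The other genes among the 5 highest at 20 DAP were GRMZM2G071433 (539 to 2010 FPKM), PAL1 and GRMZM2G115839 (168 to 906 FPKM).

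Among the genes with a RefSeq name, PAL1 (GRMZM2G074604) had the highest mean after the zeins. It encodes phenylalanine ammonia-lyase, of the first step of phenylpropanoid synthesis. Its 20 DAP values were 361 and 1712 FPKM in T191, 428 and 512 FPKM in T147, 555 and 1011 FPKM in T209, and 185 and 142 FPKM in T210. In T147 its highest time was 40 DAP, with 642 and 792 FPKM, where no other library was above 63.6 FPKM. The oleate desaturase gene fad2 (GRMZM2G064701) held 283 to 661 FPKM in 7 of the 20 DAP libraries and 75.4 FPKM in T191 ear 2. The pyruvate decarboxylase gene pdc2 (GRMZM2G038821), which serves ethanolic fermentation, was even over the ears, with 81.3 to 168 FPKM at 20 DAP and 71.5 FPKM at most elsewhere. Of the other 4 desaturase genes tested, 2 rose and 1 fell from 10 to 20 DAP, and pdc3 passed in neither direction at either step, with an unadjusted p under 0.05 at 1 of the 2.

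The named regulators in the list had lower FPKM than PAL1, fad2 and pdc2. OFP17 (GRMZM2G055737), of the ovate family of transcriptional repressors, held 6.04 to 14.7 FPKM at 20 DAP with a mean of 11.1 ± 3.53 (SD, n = 8) and 12.5 FPKM at most at other times. MYB-IF35 (GRMZM2G051256) had 11.9 to 38.4 FPKM, and NAC12 (GRMZM2G018436) 5.34 to 64 FPKM with its highest value in T191 ear 2. The MYB93 gene (GRMZM2G093660) was uneven, with 1.97 and 0 FPKM in T191, 13 and 57.7 FPKM in T147, 34.1 and 8.81 FPKM in T209, and 86.1 and 0.234 FPKM in T210. Both ears of T191 were below both of T147, while the ears of T210 spanned all the others but 1. Among signalling and transport genes, the abscisic acid receptor gene PYL9 (GRMZM2G048733) held 11.4 to 62.2 FPKM, the kinase gene bif2 (GRMZM2G171822), known from inflorescence meristems, 2.54 to 12.3 FPKM, and the potassium transporter gene HAK25 (GRMZM2G375116) 12.3 to 37 FPKM. The other genes of these families did not as a rule rise at 20 DAP. From 10 to 20 DAP 7 of 44 other MYB genes rose and 14 fell (11 and 10 after rescaling), with 1 and 2 of 20 NAC genes, 1 and 3 of 10 PYL genes, 1 and 6 of 18 HAK genes, and 1 and 0 of 3 OFP genes. Over all rows 9.86% rose and 25.7% fell. From 20 to 30 DAP 13 of the 20 NAC genes rose and 3 fell, where 21.2% of all rows rose. At this step 12 MYB genes rose and 7 fell, with 1 and 3 PYL genes, 8 and 2 HAK genes, and 2 of the 3 OFP genes and 1 of the 4 desaturase genes falling.

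The 20 DAP maximum was shared by most lines. The mean of a line was highest at 20 DAP in all 4 lines for 113 genes, in 3 lines for 21 and in 2 lines for 16. By line, it was so for 144 genes in T191, 122 in T147, 142 in T209 and 139 in T210. These counts rest on the values used for the choice, which favours such agreement, and they are a description. The T147 exceptions were highest at 30 DAP in 12 cases and at 40 DAP in 10. All 8 libraries of 20 DAP were above all 32 others for 28 genes, and for 0.416% of the 9866, a count that rests on the values used for the choice. When a line was left out of the choice, the genes chosen from the other 3 lines could be looked at in the line not used. Of 150 such genes, 140 (93.3%) were highest at 20 DAP in T191, 106 (70.7%) in T147, 128 (85.3%) in T209 and 129 (86.0%) in T210. Among all genes over the minimum in the other lines, those shares were 19.0%, 18.9%, 13.7% and 17.7%.

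The highest value at 20 DAP often came from few libraries. T210 ear 1 held it for 43 of the 150 genes (28.7%) and T209 ear 2 for 41 (27.3%), whereas over all 9866 genes these libraries held it for 17.9% and 10.1%. T191 ear 2 held it for 25 genes (16.7%, against 24.5% of the 9866). In 16 genes a single library made up more than 50% of the sum of the 8 libraries. The genes led by T210 ear 1 were of the returning kind in 25 of 43 cases, and those led by T209 ear 2 in 5 of 41. T210 ear 1 was also the 20 DAP library with the highest heat shock level, and its part in these genes was not tested. Chosen again without T191 ear 2 of 20 DAP, the list kept 132 of its genes, without T210 ear 1 it kept 133 and without T209 ear 2 135. Without T191 ear 2 and T210 ear 1 together it kept 124, and 97 genes stayed whichever of the 40 libraries was left out. A gene can thus enter by 1 line or ear.

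**Figure D3:**
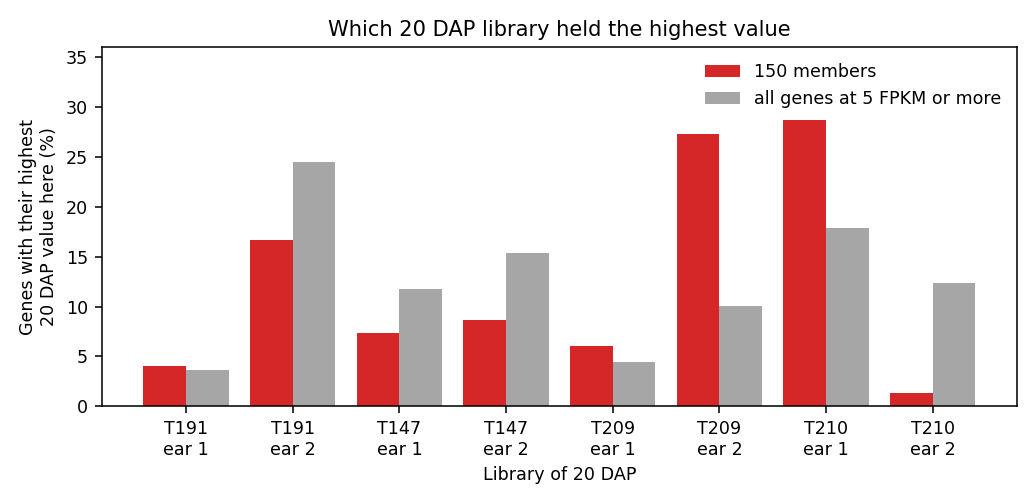
Share of genes, in percent, whose highest 20 DAP value was in each of the 8 libraries, for the 150 genes (red) and all 9866 genes with at least 5 FPKM at 20 DAP (grey). T210 ear 1 (28.7%) and T209 ear 2 (27.3%) led the 150 genes more often than the 9866, and T191 ear 2 less often.

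Differences between the lines at 20 DAP were tested by limma on log2(FPKM + 1) with Benjamini-Hochberg adjustment over 43394 rows. The choice used the mean over the lines, so a gene very high in 1 line could enter by that line, and the number of genes that differ among lines is partly set by the choice. The 4 lines differed in 44 of the 150 genes (adjusted p under 0.05), where 11.2% of all rows tested and 9.83% of the 9866 genes were called. Of the 75 genes that stayed on the list whichever line was left out of the choice, 13 were called, and of the other 75 genes 31. The shares over all rows are therefore given beside the counts below as a background and not as a test of the list. These calls borrow the spread of all 20 groups. In a fit to the 8 libraries of 20 DAP alone, limma called no gene, with 34 at an unadjusted p under 0.05.

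T191 was higher than T147 in 13 genes, where 3.01% of all rows and 3.25% of the 9866 genes were. It was lower in 11 genes, where 3.29% and 2.47% were, with a median difference of 0.22 over the 150 genes against −0.01 over all rows. GRMZM2G434557 had 58.6 and 199 FPKM in T191, against 7.15 and 4.91 FPKM in T147, a difference of 3.98 ± 0.61 (SE, adjusted p = 0.000148). GRMZM2G347488 had 13.1 and 52.8 FPKM in T191, against 1.23 and 1.69 FPKM in T147 (3.49 ± 0.70, adjusted p = 0.00257). Both ears of T191 lay above both ears of T147 for each, with ear 2 of T191 the highest. In the other direction GRMZM2G463318 had 0.0865 and 0.790 FPKM in T191, against 20.7 and 26.1 FPKM in T147 (−4.12 ± 0.48, adjusted p = 4.48e-06). GRMZM2G177229 had 4.18 and 4.18 FPKM in T191, against 105 and 71.7 FPKM in T147 (−4.08 ± 0.98, adjusted p = 0.0125). For MYB93 the difference was −4.06 ± 1.10 (adjusted p = 0.0269). Without T191 ear 2 of 20 DAP, the library that stood apart, the calls of MYB93 (adjusted p = 0.364), GRMZM2G177229 (0.0992) and GRMZM2G347488 (0.128) were lost, and those of GRMZM2G434557 and GRMZM2G463318 were not. Without T147 ear 2 MYB93 (0.298) and GRMZM2G177229 (0.0618) also lost theirs, as did GRMZM2G177229 without T147 ear 1 (0.102). In all, without T191 ear 2 of 20 DAP 7 genes were called in place of 24, and 6 of these were among the 24. Without its ear 1 46 were called, and without T147 ear 2 9.

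T209 was higher than T210 in 29 genes, where 2.57% of all rows and 2.38% of the 9866 genes were. It was lower in 6 genes, where 4.57% and 4.35% were. The median difference was 0.36 against 0.00 over all rows. The higher genes were mostly those that did not come back, as 27 of the 101 were higher and 2 lower, with a median of 0.67. Of the 49 returning genes, 2 were higher and 4 lower, with a median of −0.18. Whether the 2 kinds differ in this was not tested. Markers of starchy endosperm moved the same way, as 7 of the 8 were higher at 20 DAP in both ears of T209 than in both ears of T210, with sums of 4052 and 4861 FPKM in T209 against 2572 and 2619 FPKM in T210. Opaque2, 1 of these markers, had 269.8 and 233.9 FPKM in T209 against 190.5 and 140.9 FPKM in T210. Their part in the higher T209 values was not tested. GRMZM2G021480 had 12.1 and 24.2 FPKM in T209, against 0.860 and 0.839 FPKM in T210 (3.30 ± 0.29, SE). It reached the list through the lines where it is high, so no p-value is given. It was the single gene also called in the fit to the 20 DAP libraries alone. GRMZM2G473016 had 11.7 and 26.3 FPKM in T209, against 0.511 and 1.95 FPKM in T210 (3.14 ± 0.41, adjusted p = 1.63e-05). GRMZM2G422670 had 60.1 and 255 FPKM in T209, against 4.23 and 30.0 FPKM in T210 (3.30 ± 0.74, adjusted p = 0.00589). PAL1 was higher in T209 by 2.20 ± 0.63 (adjusted p = 0.0328), called in 5 of 8 fits without 1 library, and bif2 by 1.24 ± 0.34 (adjusted p = 0.0255), called in 6. Without T210 ear 1 the calls of PAL1 (adjusted p = 0.125), bif2 (0.297) and GRMZM2G422670 (0.243) were lost, and without T209 ear 2 they were lost as well (0.319, 0.393 and 0.200). PAL1 was also lost without T210 ear 2 (0.138).

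Among the 6 genes lower in T209, GRMZM2G351239 had 5.18 and 2.98 FPKM in T209, against 137 and 56.1 FPKM in T210 (−4.16 ± 0.80, adjusted p = 0.00161). GRMZM2G325589 was listed at 0 and at 12.3 FPKM in T209, against 123 and 38.4 FPKM in T210 (−4.26 ± 1.14, adjusted p = 0.0210). Both ears of T209 were below both of T210 in each. Without T210 ear 1 both calls were lost (adjusted p = 0.0553 and 0.255), and that of GRMZM2G325589 also without T209 ear 1 (0.363). Without T209 ear 2 of 20 DAP 12 genes were called between these lines in place of 35, and without T210 ear 1 13, and in each case 12 were among the 35. Without T210 ear 2 50 were called. Of the 150 genes, 11 were called in both pairs, of the 24 and 35 called in each. They include GRMZM2G033074, GRMZM2G127040, GRMZM2G309747 and GRMZM5G825025, each under 1 FPKM throughout at least 1 line. Such genes entered by the lines where they are high. The count is thus partly set by the choice and is not a comparison with the background counts that follow. Over all rows 812 were called in both (1.87% of the rows tested), of 2735 and 3095 called in each pair. Among the 9866 genes 101 were called in both (1.02%), of 565 and 664. In 6 of the 11 genes T191 was above T147 and T209 above T210.

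**Figure D4:**
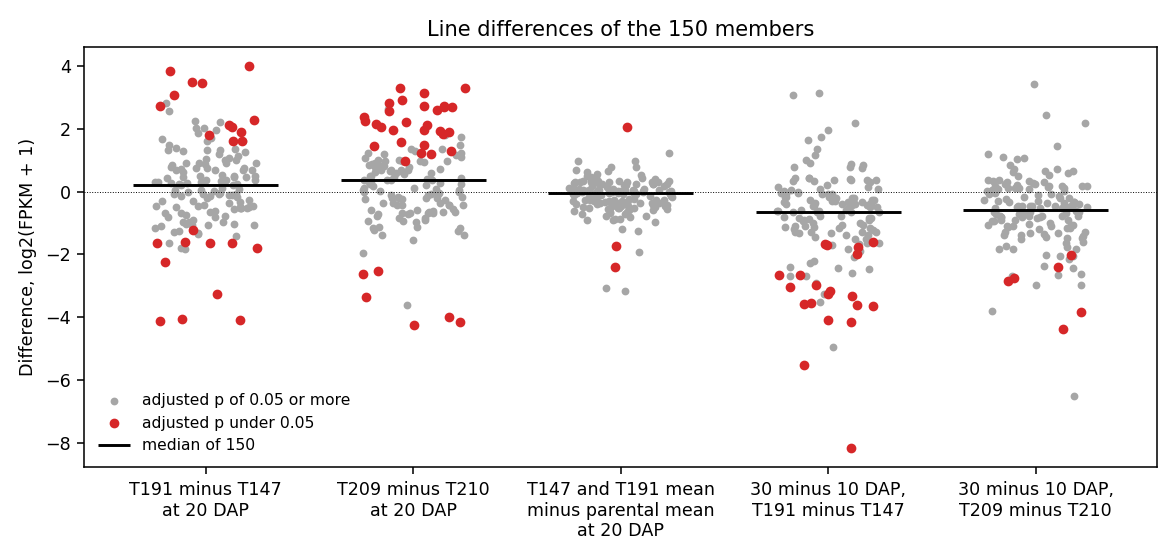
Log2 difference of each of the 150 genes in 5 contrasts between lines, as points, with genes at an adjusted p under 0.05 in red and the median as a black bar. At 20 DAP the T209 minus T210 points lean above 0 (median 0.36), and in both contrasts of the 30 minus 10 DAP difference they lean below 0 (medians −0.64 and −0.57).

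T191 and T147 together differed from the parents in few genes. Their mean was higher than the parental mean in 1 gene (0.535% of all rows were) and lower in 2 (0.583%), with 5 and 12 at an unadjusted p under 0.05. GRMZM2G119261 had 8.57 and 23.6 FPKM in T191 and 3.68 and 4.35 FPKM in T147, against 1.01 and 0.847 FPKM in T209 and 1.11 and 1.5 FPKM in T210 (2.06 ± 0.24, SE). GRMZM2G058470 had 2.84 and 0.320 FPKM in T191 and 3.49 and 1.33 FPKM in T147, against 16.4 and 21.7 FPKM in T209 and 11.3 and 7.36 FPKM in T210 (−2.40 ± 0.30). For GRMZM2G362470 the difference was −1.73 ± 0.40, and between −2.52 and −0.940 in the fits without 1 library, and it goes with T209 ear 1. GRMZM2G119261, GRMZM2G058470 and GRMZM2G362470 all left the list when some line was left out of the choice. Their differences are thus partly set by the choice and are given without a p-value. The 20 DAP mean of GRMZM2G119261 was 5.58 FPKM, near the minimum.

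Some of the genes were near or at 0 in a whole line. In 6 of the 150 genes (4.00%), all 10 libraries of at least 1 line were under 1 FPKM, and in 22 of the 9866 (0.223%), counts made after the values were seen. These genes reached the minimum and the score through the lines where they are high, and 5 of the 6 left the list when some line was left out of the choice, so the 2 shares are not a comparison. For the same reason the log2 differences in this paragraph are given without a p-value. GRMZM2G033074 had 8.72 and 20.3 FPKM at 20 DAP in T191 and was listed at 0 in both ears of T147 (3.85 ± 0.31, SE). It was listed at 0 in both ears of T209, against 8.82 and 2.44 FPKM in T210. GRMZM2G127040 was listed at 0 in all 10 libraries of T191, and at 20 DAP it had 29.4 and 1.99 FPKM in T147, 0 in both ears of T209, and 5.20 and 5.01 FPKM in T210. GRMZM5G825025 had 15.9 and 6.16 FPKM at 20 DAP in T191 and was listed at 0 in both ears of T147. The same gene had 0.219 and 0 FPKM in T209, against 53.1 and 4.80 FPKM in T210 (−4.00 ± 0.64). No fold is given where a line is listed at 0, and these log2 differences depend on the value of 1 that was added. GRMZM2G169013 was below 1 FPKM throughout T147, GRMZM2G309747 likewise, and GRMZM2G021480 in T210. The T209 minus T210 call of GRMZM2G021480 given above has the same limit from the choice. At 20 DAP GRMZM2G169013 had 199 FPKM in T210 ear 1 and 49.3 FPKM in T191 ear 2, and no other library was above 0.165 FPKM.

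The excess at 20 DAP, the 20 DAP level less the mean of the other times on the log2 scale, differed among the lines in 17 genes (2.49% of all rows tested, 2.51% of the 9866), 15 of which left the list when some line was left out of the choice. All 17 also differed in their 20 DAP level, and 3 of them were highest at 20 DAP in all 4 lines. GRMZM2G033074, GRMZM2G021480 and GRMZM2G119261 had the smallest adjusted p, and they were picked for naming by it. All 3 are among the 15 that left the list, so their p-values are not given. The excess of GRMZM2G049767 was not called (adjusted p = 0.773).

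The lines differed in the flanks of the peak. The mean of a line at 30 DAP was above that at 10 DAP in 31 genes in T191, 80 in T147, 28 in T209 and 66 in T210. The 30 minus 10 DAP difference was lower in T191 than in T147 in 20 genes and higher in none (5 higher at an unadjusted p under 0.05 by limma), where 2.91% of all rows were lower and 0.989% higher, and 3.66% of the 9866 genes were lower. The median was −0.64 against 0.04 over all rows, and 117 of the 150 values were under 0. Between T209 and T210, 6 genes were lower and none higher (2 at an unadjusted p under 0.05), where 1.83% and 1.09% of all rows were and 1.06% of the 9866 genes were lower, with a median of −0.57 against 0.00. Of the 20 genes 19 were of the 101 that did not come back, as were all 6 of the others. A high 30 DAP level in T147 or T210 puts a gene among the 101 and also makes these differences negative, so the split is partly set by the values compared.

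GRMZM2G172327 had 3.88 and 0.396 FPKM at 30 DAP in T191, against 66.3 and 28.0 FPKM in T147. At 10 DAP it had 11.0 and 21.6 FPKM in T191, against 6.24 and 4.19 FPKM in T147. T191 was thus above T147 before the peak and below it after, a difference of −5.51 ± 0.84 (adjusted p = 0.000226). GRMZM2G095839 was called in both pairs, by −4.16 ± 0.60 between T191 and T147 (adjusted p = 0.000128) and by −3.82 ± 0.60 between T209 and T210 (adjusted p = 0.000388). Its 30 DAP values were 0.0891 and 0 FPKM in T191 against 5.06 and 4.92 FPKM in T147, and 0.498 and 0 FPKM in T209 against 1.18 and 4.58 FPKM in T210. GRMZM2G161534, GRMZM2G178486 and GRMZM2G447989 were also called in both, as were 1.00% of all rows and 0.821% of the 9866 genes.

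The z1C2 zein gene had 333 and 14.2 FPKM at 30 DAP in T191, against 11448 and 5649 FPKM in T147. At 10 DAP it had 579 and 4924 FPKM in T191, against 2932 and 150 FPKM in T147, where the ears overlap. The difference of −8.16 ± 2.20 (adjusted p = 0.0315) was called in only 2 of 5 other settings of the fit. It lay between −10.4 and −5.93 in the fits without 1 library. For GRMZM2G031200 the parents differed by −4.38 ± 0.77 (adjusted p = 0.00146), with 2.58 and 2.27 FPKM at 30 DAP in T209, against 10.7 and 21.4 FPKM in T210, and 19.0 and 5.91 FPKM at 10 DAP in T209, against 0.833 and 2.90 FPKM in T210. GRMZM2G178486 differed by −2.85 ± 0.60 between the parents (adjusted p = 0.00675, but 0.0623 without T210 ear 2 of 30 DAP). The pdc2 gene (−1.76 ± 0.42, adjusted p = 0.0130) and bif2 (−1.70 ± 0.48, adjusted p = 0.0443) were lower in T191 than in T147 by this measure, called in 12 and 6 of 16 fits without 1 library.

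OFP17 was the single gene whose 30 minus 10 DAP difference set T191 and T147 apart from the parents (2.29 ± 0.37, adjusted p = 0.00221), where 0.272% of all rows were higher and 0.214% lower. At 30 DAP it had 1.90 and 1.69 FPKM in T191 and 11.6 and 12.5 FPKM in T147, against 0.681 and 0.440 FPKM in T209 and 1.31 and 0.657 FPKM in T210. The high values were those of T147, which held its 20 DAP level of 14.2 and 14.7 FPKM until 30 DAP, and T191 was below T147 by −2.66 ± 0.53 (adjusted p = 0.00295).

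Markers of starchy endosperm moved with these flanks. All 8 were lower at 30 DAP in both ears of T191 than in both ears of T147, and likewise in T209 than in T210. Their sums at 30 DAP were 250 and 59.9 FPKM in T191, against 3049 and 1595 FPKM in T147, and 238 and 396 FPKM in T209, against 1127 and 3361 FPKM in T210. The part of the amount or stage of starchy endosperm in the 30 minus 10 DAP differences was not tested.

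**Figure D5:**
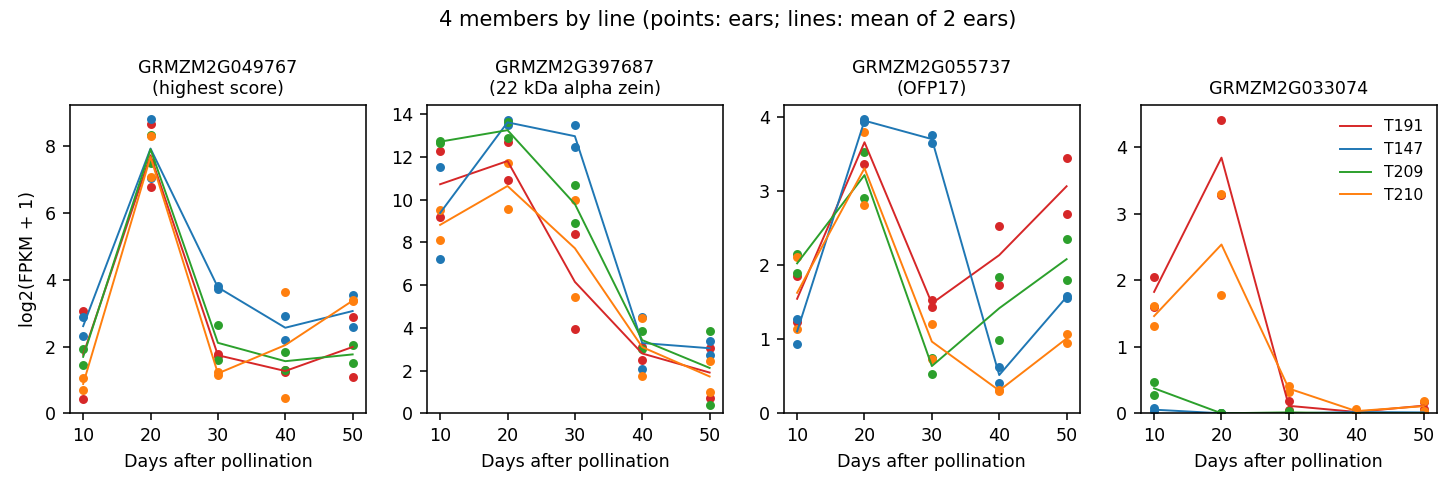
Log2(FPKM + 1) against DAP in the 4 lines for GRMZM2G049767, z1C2 (GRMZM2G397687), OFP17 (GRMZM2G055737) and GRMZM2G033074, with points for ears and lines through the means of the log2 values. GRMZM2G049767 peaks at 20 DAP in each line, z1C2 and OFP17 stay high at 30 DAP in T147, and GRMZM2G033074 is at or near 0 throughout T147 and T209.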

How the data were processed

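Seeds from the middle of 2 ears per line and DAP were the 2 biological repeats, and libraries were made with the TruSeq RNA kit. The authors calculated the deposited FPKM values from gene length and read counts. The submitters' processing notes name Bowtie 0.12.2, Cuffdiff and the build B73 RefGen_v3, with no role stated. The table also lists assembled loci, which can share reads with the named genes they overlap. Groups were taken from the library labels, and no column was left out.

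The 150 genes, the name lists and the naming rule were chosen with earlier results of these data known. The genes named are the 20 highest scores (in part as a summary), the 5 highest means at 20 DAP, those with a RefSeq name, up to 3 in each direction of a line contrast, and the 3 on either side of the edge of the list. FBL2 (GRMZM2G153075), of the RefSeq names, is given no role. Lists by product name were planned, but the RefSeq gene table (Zm-B73-REFERENCE-NAM-5.0, names and chromosomes only) holds no product names, so lists were made from symbols and synonyms after seeing the data.

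Log2(FPKM + 1) of rows that reached 1 FPKM in 2 or more libraries was fitted with limma 3.58.1 in R 4.3.3 (1 mean per group, all 40 libraries, trend on the mean, two-sided, Benjamini-Hochberg adjustment). Relative depth came from ratios of low FPKM values, with 775 of 780 pairs of libraries within 0.02 on the natural log scale. The script was tested on simulated data. Alternatives were a pseudocount of 0.1, no filter, rescaled libraries, a block for ear number, only the libraries of the DAP compared, other forms of the choice of genes, and leaving out libraries. Promoter sequences were not used here. Figures and tables were made with Python 3.11.15, pandas 2.3.3 and matplotlib 3.10.9.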

Additional observations from a re-analysis of the deposited data

Results flagged for a closer look

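The following results differed between lines under the same contrast by a test of the difference itself, the limma contrasts of the report. The excess at 20 DAP differed among the 4 lines in 17 of the 150 genes (2.49% of all rows tested, 2.51% of the 9866). Of the 17, 15 left the list when some line was left out of the choice, so this number is partly set by the choice. The smallest adjusted p were those of GRMZM2G033074 (7.22e-07), GRMZM2G021480 (9.64e-07) and GRMZM2G119261 (3.19e-05), all 3 among the 15. The 30 minus 10 DAP difference was lower in T191 than in T147 in 20 genes (2.91% of all rows tested, 3.66% of the 9866). It was lower in T209 than in T210 in 6 genes (1.83% of all rows tested, 1.06% of the 9866). For the T147 and T191 mean it was above that of the parental mean in 1 gene (0.272% of all rows tested). On the log2 scale, the T191 minus T147 values were −8.16 for GRMZM2G397687, −5.51 for GRMZM2G172327 and −4.16 for GRMZM2G095839. That of GRMZM2G397687 was called in only 2 of 5 other settings of the fit. The T209 minus T210 values were −4.38 for GRMZM2G031200, −3.82 for GRMZM2G095839 and −2.85 for GRMZM2G178486. For GRMZM2G055737, the mean of T147 and T191 was 2.29 above the parental mean.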

How the results depend on the processing

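Under a pseudocount of 0.1 the calls between T191 and T147 at 20 DAP were 15, between T209 and T210 23, of the excess 5, and of the 30 minus 10 DAP difference between the parents 3. In limma fits to the libraries of 20 DAP alone, the calls were 0 among the 4 lines (34 at an unadjusted p under 0.05), 0 between T191 and T147 (30), 1 between T209 and T210 (30) and 0 between T191 and T147 together and the parents (7). The excess uses all 40 libraries, so it has no such fit. Without T191 ear 2 and T210 ear 1 of 20 DAP together, an alternative added after seeing the data, the 3 contrasts at 20 DAP gave 9, 15 and 13. Leaving out each library in turn gave 32 to 69 calls among the lines, 7 to 46 between T191 and T147, 12 to 50 between T209 and T210, 3 to 8 against the parents and 10 to 46 of the excess. It gave 9 to 23, 3 to 9 and 1 to 1 calls of the 30 minus 10 DAP differences, 56 to 63 and 97 to 104 over the name lists, and kept 132 to 150 of the genes. The excess had 46 calls without T191 ear 1 of 20 DAP and 10 without T147 ear 2 of 20 DAP, and the T191 and T147 flanks had 9 without T147 ear 1 of 30 DAP. In fits to 10 and 30 DAP alone, 1 gene was higher in T191 than in T147 by the 30 minus 10 DAP difference, and 1 in T209 than in T210. Rescaling changed the 62 calls of the lists from 10 to 20 DAP to 63, of which 44 rose and 19 fell, where 34 rose and 28 fell before. Choosing by the median of the 8 libraries kept 112 of the 150 genes, a floor of 1 FPKM or rescaling 138, and leaving out a line 125 to 127. The cause of these changes was not tested. For the 24 results for single genes and for counts of shape, 45 values under an alternative no longer passed the threshold and 331 were labelled unchanged. For a single gene, unchanged means that the call was kept, and no direction of a gene was reversed. For a count of shape, which has no call or direction, it means a count close to the one reported.

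Ear numbers 1 and 2 showed no general pairing of the samples. Of 190 pairs of groups, 35 had a correlation of deviations over 0.1, with a median of 0.0136 and a range from −0.370 to 0.466. Within a DAP, 7 of 30 pairs were over 0.1, and pairing at a single DAP was not tested. With the replicate number as a block the calls were 49 among the lines, 25, 35 and 3 in the contrasts at 20 DAP, 19 of the excess, 20, 6 and 1 of the 30 minus 10 DAP differences, and 64 and 107 over the lists. Depth limits the genes near 0 FPKM, and with 2 ears a group 1 ear can decide a call.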

Other observations

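The same choice applied to rows without a GRMZM name found 48 of 869 assembled loci and 17 of 546 other rows with at least 5 FPKM at 20 DAP to score as high as the 150 genes. Among the named rows, HSP82 had a score of 2.65 and zma-MIR167a, the row of a microRNA gene, 2.37. The rows AF546187.1_FG007 and AF546187.1_FG009 held the same values, 264, 2026, 598, 3.52 and 1.87 FPKM from 10 to 50 DAP.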
